A study of Mus musculus with 26 samples.

Results

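The genes described here belong to the leukaemia inhibitory factor (LIF) and gp130 receptor pathway. They are 4 receptor chains (Lifr, Il6st, Osmr and Cntfr), the ligand Lif, the kinases Jak1 and Jak2, the transcription factor Stat3 and the inhibitor Socs3. A gene's value was the mean log2 signal of all probe sets whose annotation named that gene alone. The 9 genes had 159 such probe sets among 269751 on the array, and they were 9 of the 23152 genes measured. They were selected on the measured values of MYBQKI5 against eGFP, in which Lifr was lower, so every value of that contrast is a description here and was not used as evidence.

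The study placed constructs into neural stem cells (mNSC) of wild-type C57BL6 mouse embryos of embryonic day 14.5 by lentivirus and read total RNA on arrays. In the pool set, the cells over-expressed MYBtr, MYBQKI5, MYBQKI6, QKItr or, as the control, eGFP, each in 3 pools. The eGFP control had 2 arrays (R1 and R2) in each pool, averaged here to 1 value. In the suppression set, all 8 samples over-expressed MYBQKI6, and Qk was suppressed in 5 of them and LacZ in the other 3. MYB encodes a DNA-binding transcription factor and QKI an RNA-binding protein, and fusions of both genes are known from human angiocentric glioma. The labels say neither what "tr" stands for nor what a pool holds, nor which promoter or reagent was used. Where pools do not come from separate cultures or animals, p-values measure only a technical spread.

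LIF and its relatives bind receptor pairs that share gp130, the protein of Il6st. The bound receptors activate JAK kinases, which phosphorylate STAT3, and STAT3 then switches on genes such as Socs3, whose protein shuts the receptor down again. In neural stem cells the pathway is known for self-renewal and for turning on astrocyte genes such as Gfap.

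The promoters of Lifr and Stat3, the members with the largest differences, and of Socs3, the feedback gene, are shown from 250 bases before to 50 bases after a transcript start, as RefSeq gives them on GRCm38.p6. Capitals mark matches to TAACNG or CAACNG (a MYB motif) or to TTCNNNGAA (a STAT motif), searched on both strands.
Lifr, chr15:7129322-7129621, plus strand: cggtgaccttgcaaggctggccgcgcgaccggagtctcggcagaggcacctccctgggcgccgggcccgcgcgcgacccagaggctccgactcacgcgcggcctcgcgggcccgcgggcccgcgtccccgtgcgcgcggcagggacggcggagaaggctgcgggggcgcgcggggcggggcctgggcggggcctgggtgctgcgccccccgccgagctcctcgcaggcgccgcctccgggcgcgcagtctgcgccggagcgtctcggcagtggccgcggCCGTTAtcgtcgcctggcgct
Stat3, chr11:100939491-100939790, minus strand: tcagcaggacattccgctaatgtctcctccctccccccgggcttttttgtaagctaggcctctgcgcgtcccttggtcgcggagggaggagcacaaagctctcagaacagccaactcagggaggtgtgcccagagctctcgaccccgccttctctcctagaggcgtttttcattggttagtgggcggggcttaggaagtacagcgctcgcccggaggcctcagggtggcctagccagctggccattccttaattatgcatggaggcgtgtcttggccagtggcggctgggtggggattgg
Socs3, chr11:117969317-117969616, minus strand: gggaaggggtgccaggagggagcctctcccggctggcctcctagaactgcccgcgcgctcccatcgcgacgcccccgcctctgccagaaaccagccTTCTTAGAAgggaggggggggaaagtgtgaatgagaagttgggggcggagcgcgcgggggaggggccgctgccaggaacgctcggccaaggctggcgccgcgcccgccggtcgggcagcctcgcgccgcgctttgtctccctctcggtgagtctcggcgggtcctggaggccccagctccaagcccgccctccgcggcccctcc

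All 9 genes matched the RefSeq table, with 15 promoters in all. The Lifr promoter shown held 1 MYB match, on the strand opposite to the gene, from base 280 of the 300 (printed as CCGTTA), and its GC content was 81.3%. The other Lifr start (chr15:7140292-7140591, plus strand) held no match. The Socs3 promoter held 1 STAT match, from base 97, and no MYB match. Stat3 had neither. MYB matches stood in 3 of the 15 promoters (1 each of Lifr, Osmr and Cntfr), beside 49.67% of the 32817 RefSeq promoters, and the STAT match in 1 of 15, beside 8.29%. Of the 15, 6 are starts of Cntfr that mostly overlap, so they are not separate promoters. Most of the 15 also have a GC content above the median of all promoters (52.7%). Whether the members differ from other promoters in these matches was not tested. No MYB match overlapped a STAT match in these promoters.

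Lifr encodes the signalling receptor chain that binds LIF and pairs with gp130. Its log2 signal was 5.86, 6.14 and 6.65 with MYBtr, 5.90, 6.48 and 6.23 with MYBQKI5 and 5.94, 5.99 and 6.54 with MYBQKI6 (pools 1, 2 and 3). It was 7.46, 7.70 and 7.49 with QKItr and 7.57, 7.25 and 7.57 with eGFP. All 9 samples with a MYB construct lay below all 6 samples without one. The MYBQKI5 and eGFP samples chose the genes, so where they enter, this order is only a description. How many of all genes separate in this way was not counted, here or for the other members. In group means the order from high to low was QKItr (7.55), eGFP (7.46), MYBtr (6.21), MYBQKI5 (6.20) and MYBQKI6 (6.16), with SDs between 0.13 and 0.40 (n = 3 each). Only the step between MYBtr and eGFP exceeded the spread. The 2 eGFP arrays of a pool differed by at most 0.23 for Lifr, and by less for each other member.

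**Figure D1:**
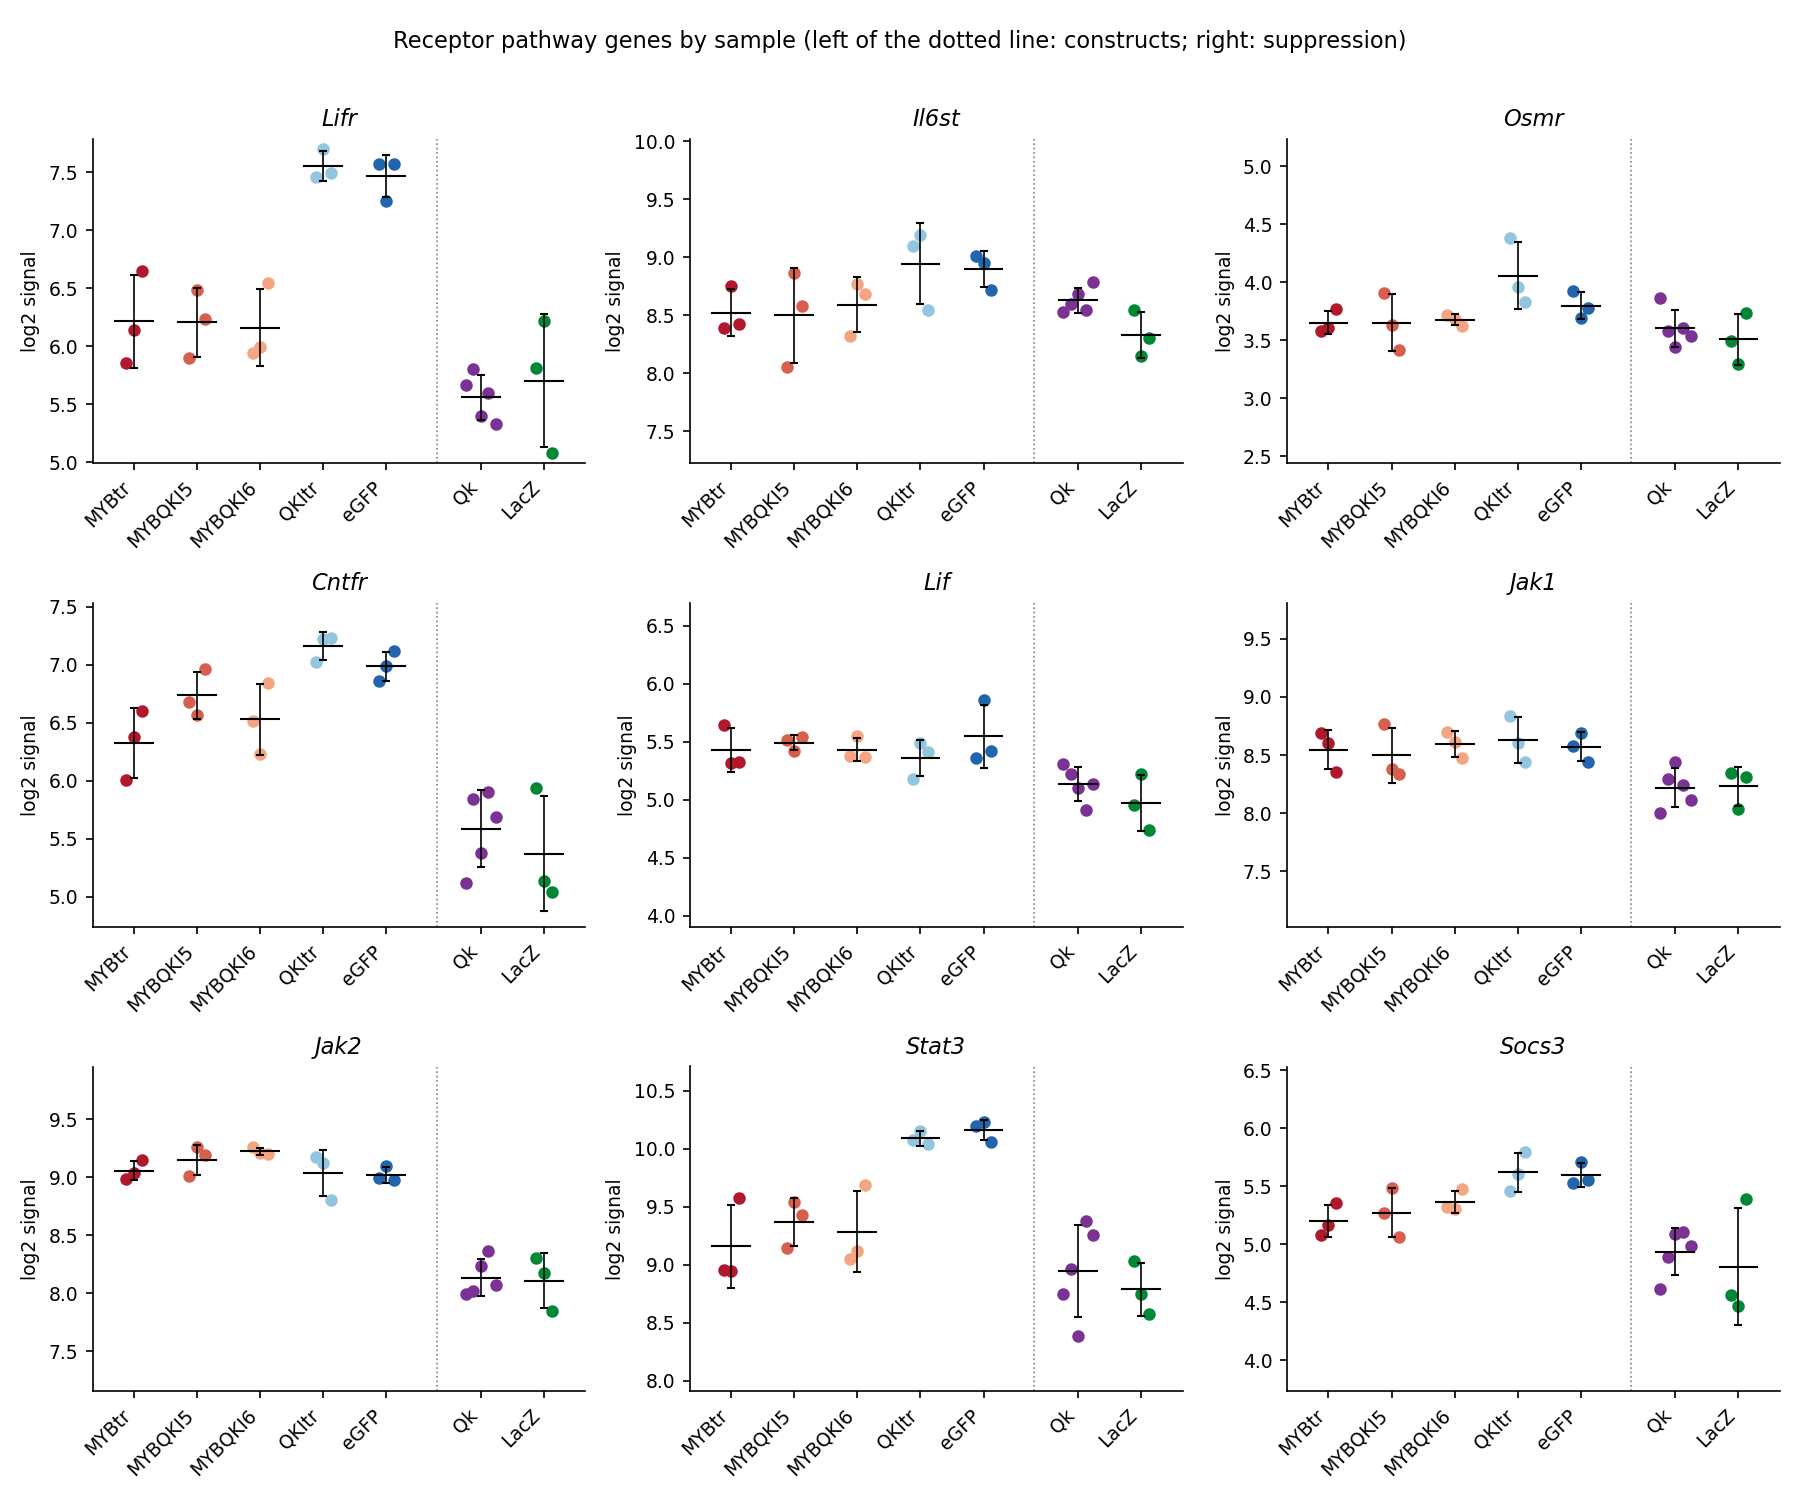
Log2 signal (vertical axes, each spanning the same range) of each of the 9 genes in every sample. Points are pools or samples, bars are means ± SD, the 5 construct groups stand left of the dotted line and the Qk and LacZ suppression samples right of it. Lifr and Stat3 separate the 3 MYB constructs from QKItr and eGFP, and the MYBQKI5 and eGFP samples among them chose the genes.

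Tests used limma across all 23152 genes with Benjamini-Hochberg adjustment, and a gene is called at an adjusted p under 0.05. Against QKItr, where the difference itself uses no array of the contrast that chose the genes, Lifr fell with both MYB constructs tested. The fit held all pool columns, so its SE and adjusted p also drew on the spread of the MYBQKI5 and eGFP arrays. They are therefore not independent of the choice, and the compared samples share pools with the choosing arrays. MYBtr gave a difference of -1.34 (SE 0.22, adjusted p = 0.00656), or 0.396 times the QKItr signal, lower in 3 of 3 pools. MYBQKI6 gave -1.39 (SE 0.22, adjusted p = 0.00897), or 0.381 times, also in 3 of 3 pools. In fits that left out 1 sample of the compared groups at a time, the MYBtr call was kept in all 6 (adjusted p from 0.00212 to 0.0439). The MYBQKI6 call was lost without MYBQKI6 pool 1 (adjusted p = 0.055), MYBQKI6 pool 2 (0.0661) or QKItr pool 2 (0.0539). Both were lost when only the 6 arrays of the compared groups were fitted, without the choosing arrays (0.0637 for MYBtr and 0.0568 for MYBQKI6). None of these fits held the pool, though columns of the same pool deviated together. With the pool as a block and no sample left out, the limma adjusted p for Lifr was 0.000621 with MYBtr and 0.000712 with MYBQKI6.

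Against eGFP, whose arrays also entered the choice of the genes, the Lifr differences were -1.25 with MYBtr (SE 0.22, adjusted p = 0.0154) and -1.30 with MYBQKI6 (SE 0.22, adjusted p = 0.0143). The contrast behind the choice, MYBQKI5 against eGFP, gave -1.26. These 3 values share the eGFP arrays and are not independent of each other. The MYBtr call against eGFP was lost without eGFP pool 1 (0.0688), eGFP pool 3 (0.0564), MYBtr pool 1 (0.0701) or MYBtr pool 2 (0.0879). The MYBQKI6 call was lost without eGFP pool 1 (0.0826), eGFP pool 3 (0.0586), MYBQKI6 pool 1 (0.0741) or MYBQKI6 pool 2 (0.114). These fits held no pool either, and with the block over all samples the adjusted p was 0.00131 with MYBtr and 0.00134 with MYBQKI6.

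Among the other receptor chains, Cntfr fell with MYBtr. Cntfr encodes the chain that binds ciliary neurotrophic factor and needs gp130 and LIFR to signal. Its log2 signal was 6.01, 6.38 and 6.60 with MYBtr, 6.68, 6.57 and 6.96 with MYBQKI5 and 6.52, 6.23 and 6.84 with MYBQKI6. It was 7.02, 7.22 and 7.24 with QKItr and 6.86, 6.99 and 7.12 with eGFP. The MYBtr and MYBQKI6 samples did not overlap with QKItr or eGFP, and the MYBQKI5 samples did overlap with eGFP. Where MYBQKI5 or eGFP enters, this is again a description.

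MYBtr against QKItr gave a Cntfr difference of -0.83 (SE 0.18, adjusted p = 0.0305), lower in 3 of 3 pools. The call was lost without each of the 3 QKItr samples, MYBtr pool 1 or MYBtr pool 2 (adjusted p from 0.0605 to 0.134). MYBQKI6 against QKItr gave -0.63 (adjusted p = 0.137, and 0.0112 with the pool as a block). MYBtr against eGFP gave -0.66 (adjusted p = 0.113, and 0.00876 with the block). MYBQKI6 against eGFP gave -0.46 (adjusted p = 0.455), and MYBQKI5 against eGFP -0.25.

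Il6st encodes gp130, the chain that all receptors of the family share. Its log2 signal was 8.39, 8.76 and 8.42 with MYBtr, 8.06, 8.86 and 8.58 with MYBQKI5 and 8.32, 8.77 and 8.68 with MYBQKI6. It was 9.10, 9.19 and 8.55 with QKItr and 9.01, 8.95 and 8.72 with eGFP. Every MYB group overlapped with both. The differences were -0.42 (95% confidence interval -0.89 to 0.04) for MYBtr against QKItr and -0.35 (-0.82 to 0.11) for MYBQKI6 against QKItr. Against eGFP they were -0.37 with MYBtr, -0.39 with MYBQKI5 and -0.30 with MYBQKI6. No Il6st difference was called (adjusted p of 0.438 or more), and the intervals leave room for an Il6st level well below that of QKItr as well as for no difference.

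Osmr, the oncostatin M receptor chain, was the dimmest member, with 3.42 to 3.90 over the 9 samples with a MYB construct, 3.83 to 4.38 with QKItr and 3.69 to 3.92 with eGFP. Of its 17 probe sets, 6 lay below the 25th percentile of the array in all eGFP columns, so part of its signal lay low on the scale of the arrays. Its differences were -0.41 for MYBtr against QKItr and -0.38 for MYBQKI6 against QKItr, neither of them called (adjusted p = 0.257 and 0.365).

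The ligand and the kinases showed no called difference. Lif lay between 5.31 and 5.64 with the MYB constructs, between 5.18 and 5.49 with QKItr and between 5.36 and 5.86 with eGFP. Jak1 lay between 8.34 and 8.77, between 8.44 and 8.83 and between 8.44 and 8.69 in these 3 sets. Both kinases carry the signal of the receptor chains into the cell. Jak2 lay between 8.98 and 9.26 with the MYB constructs, between 8.81 and 9.18 with QKItr and between 8.97 and 9.10 with eGFP. For MYBtr against QKItr the intervals were -0.26 to 0.39 for Lif, -0.41 to 0.25 for Jak1 and -0.24 to 0.29 for Jak2, each excluding a fall as large as that of Lifr. For MYBQKI6 against QKItr they were -0.25 to 0.40, -0.36 to 0.30 and -0.08 to 0.45.

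Stat3 encodes the transcription factor at the end of the pathway, and its signal fell beside that of Lifr. It was 8.96, 8.95 and 9.58 with MYBtr, 9.14, 9.54 and 9.43 with MYBQKI5 and 9.05, 9.12 and 9.69 with MYBQKI6. It was 10.07, 10.16 and 10.04 with QKItr and 10.20, 10.23 and 10.06 with eGFP. All 9 samples with a MYB construct lay below the 6 others, again a description where MYBQKI5 or eGFP enters. Pool 3 was the highest with MYBtr and with MYBQKI6.

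MYBtr against QKItr gave a Stat3 difference of -0.93 (SE 0.19, adjusted p = 0.0247), or 0.525 times, lower in 3 of 3 pools. The call was lost without each of the 3 QKItr samples, MYBtr pool 1 or MYBtr pool 2 (adjusted p from 0.0573 to 0.14). MYBQKI6 against QKItr gave -0.80 (adjusted p = 0.0692), which passed with the pool as a block (0.0112) and without MYBQKI6 pool 3 (-1.002, 0.0189). Against eGFP the Stat3 differences were -1.002 with MYBtr (adjusted p = 0.0216), -0.79 with MYBQKI5 and -0.88 with MYBQKI6 (0.0577, and 0.00903 with the block). The MYBtr call against eGFP was lost without each of the 3 eGFP samples, MYBtr pool 1 or MYBtr pool 2 (adjusted p from 0.0574 to 0.136).

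Socs3 encodes the inhibitor that STAT3 switches on. Its log2 signal was 5.08, 5.16 and 5.36 with MYBtr, 5.27, 5.49 and 5.06 with MYBQKI5 and 5.32, 5.30 and 5.48 with MYBQKI6. It was 5.46, 5.61 and 5.80 with QKItr and 5.52, 5.71 and 5.55 with eGFP. All 9 samples with a MYB construct lay below the 3 eGFP values, only a description, since the eGFP and MYBQKI5 samples chose the genes. Against QKItr only MYBtr did not overlap: MYBQKI5 pool 2 (5.49) and MYBQKI6 pool 3 (5.48) lay above QKItr pool 1 (5.46). The Socs3 difference did not pass the adjustment. It was -0.42 for MYBtr against QKItr (adjusted p = 0.168, and 0.0571 with the block) and -0.26 for MYBQKI6 against QKItr (0.569). Against eGFP it was -0.39 with MYBtr (adjusted p = 0.276), -0.32 with MYBQKI5 and -0.23 with MYBQKI6 (0.881).

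**Figure D2:**
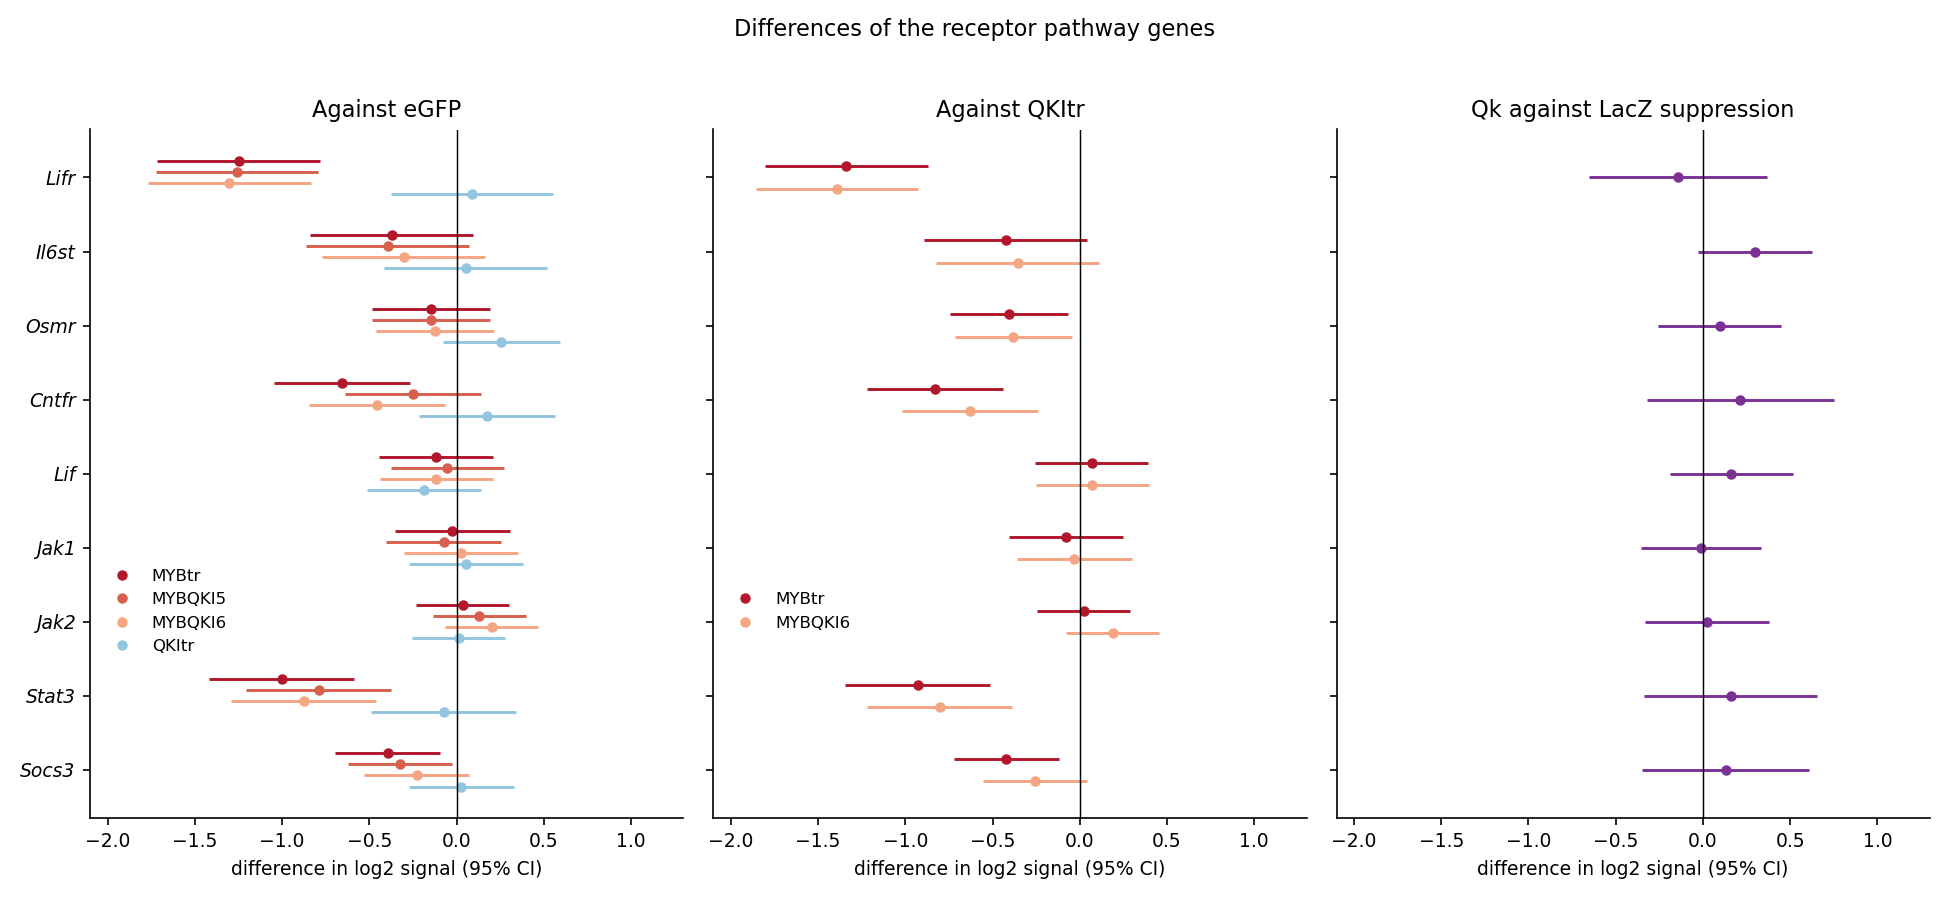
Differences in log2 signal (horizontal axes) of the 9 genes for each construct against eGFP, for MYBtr and MYBQKI6 against QKItr, and for Qk against LacZ suppression. Points are limma estimates and lines their 95% confidence intervals. Lifr and Stat3 lie farthest below 0 with the MYB constructs, and the intervals of QKItr against eGFP and of Qk against LacZ suppression span 0 for all 9 genes.

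In MYBtr against QKItr, 3 of the 9 members were called lower (Lifr, Stat3 and Cntfr) and none higher, beside 0.678% of all genes lower and 1.34% higher. In MYBQKI6 against QKItr, 1 member (Lifr) was called lower, beside 0.294% lower and 0.752% higher among the 23152. In the blocked fit it was 3 of 9 (Lifr, Stat3 and Cntfr), beside 2.79% lower and 3.79% higher, and the block left the 3 calls of MYBtr against QKItr beside 3.73% lower and 5.19% higher. The median difference of the 9 members was -0.42 and -0.35 in these contrasts, and the median of all genes was -0.01 in both. Lists chosen with results known give no independent evidence, and these counts are descriptions.

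Against eGFP, 2 members were called lower with MYBtr (Lifr and Stat3), beside 0.471% of all genes, and 3 with the block (Cntfr added), beside 2.64%. With MYBQKI6 the count was 1 (Lifr), beside 0.229%, and 2 with the block (Stat3 added), beside 2.00%. With MYBQKI5, the choosing contrast, it was 1, beside 0.0605%, and 2 with the block, beside 1.36%, and nothing is read from either. No member was called higher, and over all genes 0.898% were higher with MYBtr and 0.536% with MYBQKI6 (3.33% and 2.40% with the block).

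The Lifr difference was then read in its single probe sets. Against QKItr, all 22 Lifr probe sets were lower with MYBtr and 21 of 22 with MYBQKI6, beside 49.2% and 49.6% of all probe sets. The signal was at least 2-fold lower in 18 of 22 with MYBtr and in 20 of 22 with MYBQKI6. How many of all probe sets were that much lower was not counted. Tested over all 269751 probe sets, 4 and 5 Lifr probe sets were called lower, beside 0.0797% and 0.0237%. With the block these became 11 and 9, beside 0.417% and 0.228%. Probe sets of 1 gene share their transcripts and are not replicates.

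Against eGFP, 21 of 22 Lifr probe sets were lower with each of MYBtr, MYBQKI5 and MYBQKI6, beside 50.2%, 51.2% and 50.1% of all probe sets. The called counts were 0 with MYBtr and 3 with MYBQKI6, beside 0.0248% and 0.0108%, and 7 and 6 with the block, beside 0.130% and 0.0519%. The probe set that was not below eGFP differed between constructs. With MYBtr it was the first in the order of identifiers, which averaged 7.83 with MYBtr, 7.69 with MYBQKI5 and 7.50 with MYBQKI6, against 8.00 with QKItr and 7.80 with eGFP. With MYBQKI6 it was the next in order, which averaged 4.58, 4.84 and 5.55 with MYBtr, MYBQKI5 and MYBQKI6, against 5.26 with QKItr and 5.38 with eGFP. With MYBQKI5 it was a dim one, which averaged 3.00, 3.41 and 1.75 with the MYB constructs, against 3.27 with QKItr and 3.20 with eGFP. These probe sets were singled out after their values were seen. The deposited values carry no positions, so which part of the transcript these probe sets read was not tested.

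**Figure D3:**
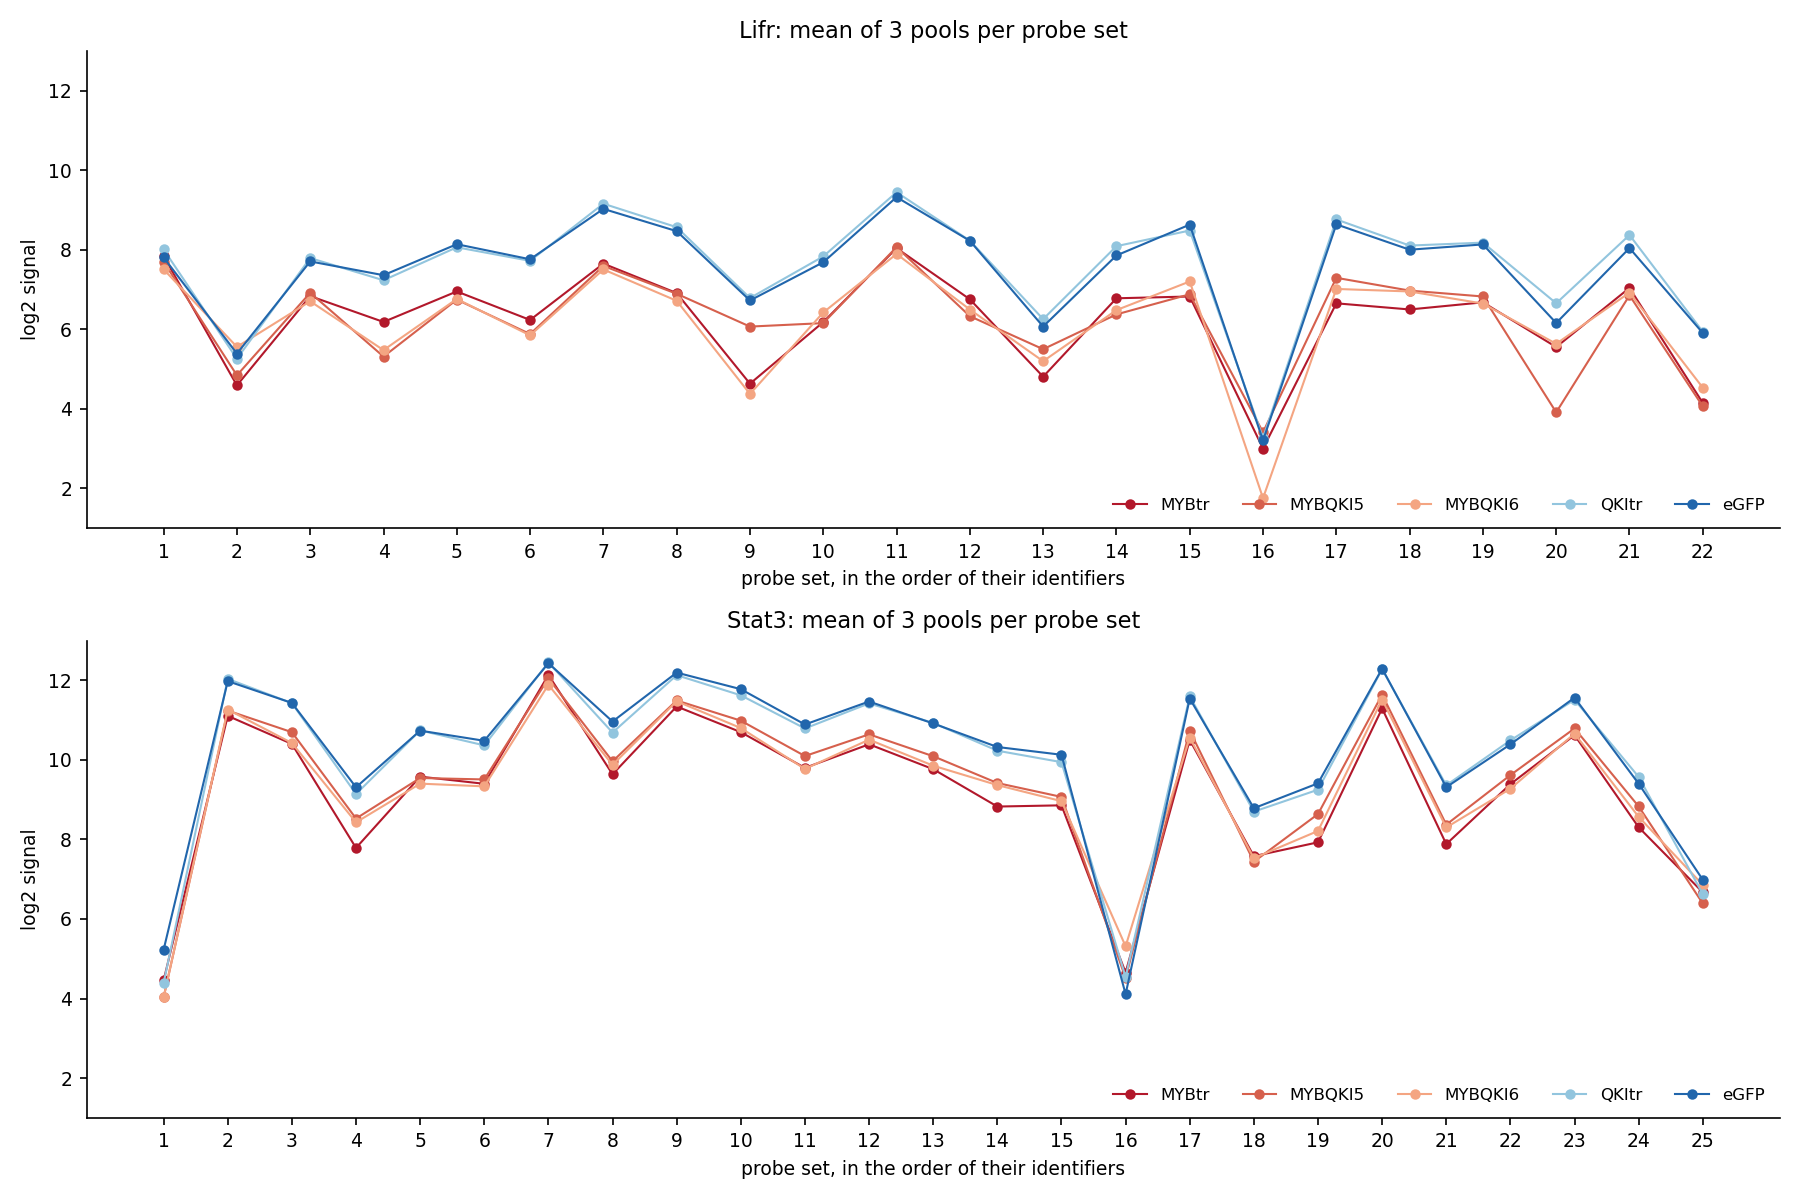
Mean log2 signal (vertical axes) of each probe set of Lifr (22, upper panel) and Stat3 (25, lower panel), in the order of their identifiers (horizontal axes), for the 5 construct groups, 3 pools each. The lines of the 3 MYB constructs run below those of QKItr and eGFP at most probe sets of both genes, with the first Lifr probe sets among the exceptions.

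For Stat3, 22 of 25 probe sets were lower than QKItr with MYBtr and 23 of 25 with MYBQKI6, beside 49.2% and 49.6% of all probe sets. Of these, 14 and 11 were at least 2-fold lower, again without a count over all probe sets. The calls were 3 with MYBtr and 0 with MYBQKI6, beside 0.0797% and 0.0237%, and 5 and 0 with the block, beside 0.417% and 0.228%. The brightest Stat3 probe set moved less than the gene mean. It averaged 12.14 with MYBtr and 11.89 with MYBQKI6, against 12.45 with QKItr and 12.43 with eGFP, so the difference of MYBtr from eGFP was -0.29 there. With the brightest probe set standing for each gene, Stat3 was not called in MYBtr against QKItr (-0.32, adjusted p = 0.464).

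Of the other members' probe sets in MYBtr against QKItr, 12 of 13 of Cntfr, 16 of 17 of Il6st, 14 of 17 of Osmr and 5 of 7 of Socs3 were below 0. Over all probe sets the share was 49.2%. Only Cntfr had calls among them, 4 lower with the block and 0 without it, beside 0.417% and 0.0797% of all probe sets. The Jak1, Jak2 and Lif probe sets were spread around 0, with 17 of 31, 7 of 20 and 3 of 7 below it.

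The constructs were then compared with each other. No member was called in QKItr against eGFP, with a Lifr difference of 0.09 (95% confidence interval -0.38 to 0.55) and a Stat3 difference of -0.07 (-0.49 to 0.34). No member was called between MYB constructs either. MYBQKI6 against MYBtr gave -0.05 for Lifr (-0.52 to 0.41), 0.20 for Cntfr (-0.19 to 0.59) and 0.13 for Stat3 (-0.29 to 0.54). For MYBQKI5 against MYBtr the Lifr difference was -0.01 (-0.48 to 0.46) and for MYBQKI6 against MYBQKI5 it was -0.04 (-0.51 to 0.42). For Lifr, each of these intervals excluded a difference of the size measured for MYBtr against QKItr. The largest difference between constructs was that of Cntfr in MYBQKI5 against MYBtr, 0.41 (0.02 to 0.80), higher in 3 of 3 pools with MYBQKI5 (adjusted p = 1). In each of these 4 comparisons limma called 0% of all genes, while 362 genes for QKItr against eGFP, 849 for MYBQKI5 against MYBtr, 604 for MYBQKI6 against MYBtr and 404 for MYBQKI6 against MYBQKI5 had an unadjusted p under 0.05.

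Suppressing Qk in cells that carried MYBQKI6 left no called difference in the pathway. Lifr was 5.67, 5.80, 5.39, 5.60 and 5.32 with Qk suppressed, against 5.81, 6.22 and 5.08 with LacZ suppressed. The LacZ samples spanned the whole range of the Qk samples, and the difference was -0.15 (95% confidence interval -0.66 to 0.37). Stat3 was 8.75, 8.96, 8.39, 9.38 and 9.26 with Qk suppressed, against 9.04, 8.75 and 8.58 with LacZ suppressed, and differed by 0.16 (-0.34 to 0.65). These groups overlapped as well.

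Il6st had the largest difference of the 9 members, 0.30 (-0.03 to 0.62), with 8.53, 8.60, 8.68, 8.55 and 8.79 with Qk suppressed, against 8.54, 8.15 and 8.30 with LacZ suppressed. Cntfr differed by 0.21 (-0.32 to 0.75), Lif by 0.16 (-0.19 to 0.52) and Socs3 by 0.13 (-0.35 to 0.61). Osmr, Jak1 and Jak2 differed by 0.10, -0.01 and 0.02. All 9 adjusted p were 0.999 or more, and 0.00432% of all genes (1 gene) were called, with 946 at an unadjusted p under 0.05. In the same samples the Qk gene itself averaged 9.48 ± 0.16 with Qk suppressed (SD, n = 5) and 9.70 ± 0.03 with LacZ suppressed (n = 3), a difference of -0.22 that was not called (adjusted p = 0.999). The groups overlapped for Qk as well (9.30 to 9.70 with Qk suppressed, 9.68 to 9.74 with LacZ suppressed).

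The wider pathway was described with gene lists. Of 12 further ligands and receptors of the gp130 family, none was called in any comparison without the block. Their median difference was -0.07 for MYBtr against QKItr and 0.04 for MYBQKI6 against QKItr, beside -0.01 for all genes in both. With the block 1 was called, Osm, the ligand of the oncostatin M receptor, beside 3.73% of all genes lower. It was lower with MYBtr than with QKItr (3.82 ± 0.20 against 4.38 ± 0.20, adjusted p = 0.0411, and 0.139 without the block). Its MYBtr mean lay near the 25th percentile of probe sets in the pool set (3.77 to 3.87), so its signal was low.

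Of 25 further JAK and STAT proteins and their regulators, 1 was called higher and none lower in both contrasts with QKItr, beside 1.34% of all genes higher with MYBtr and 0.752% with MYBQKI6. It was Stat2, a transcription factor of interferon signalling. Stat2 averaged 9.08 ± 0.73 with MYBtr and 9.11 ± 0.48 with MYBQKI6, against 7.56 ± 0.37 with QKItr (SD, n = 3 each). The differences were 1.52 (adjusted p = 0.0313) and 1.54 (adjusted p = 0.0433), and each was lost in 5 of 6 fits that left out 1 sample (up to 0.171 and 0.234). Of these 6, the fit without pool 3 of the MYB construct kept each call, and both were lost when only the compared groups were fitted (0.139 and 0.0837). Against eGFP (7.73 ± 0.39) Stat2 differed by 1.36 with MYBtr and 1.38 with MYBQKI6 (adjusted p = 0.0681 and 0.0855, and 0.00319 and 0.00382 with the block). The list's median difference was 0.03 and 0.07 against QKItr.

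Of 24 genes described elsewhere as STAT3 targets, 2 were called lower with MYBtr than with QKItr and none higher, beside 0.678% and 1.34% of all genes. Fos, an immediate early transcription factor, averaged 6.31 ± 0.15 with MYBtr and 6.93 ± 0.13 with MYBQKI6, against 8.44 ± 0.81 with QKItr and 8.17 ± 0.59 with eGFP. Its difference from QKItr was -2.13 with MYBtr (adjusted p = 0.00449) and -1.51 with MYBQKI6 (adjusted p = 0.043), the only target called with MYBQKI6, beside 0.294% of all genes lower. Gfap, the intermediate filament of astrocytes, averaged 4.59 ± 0.07 with MYBtr and 4.66 ± 0.31 with MYBQKI6, against 5.97 ± 0.49 with QKItr and 5.99 ± 0.65 with eGFP. Against QKItr the MYBtr difference of Gfap was -1.38 (adjusted p = 0.0283). For MYBQKI6 it was -1.30 (0.0524, and 0.00754 with the block).

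Against eGFP, the target list had 2 genes lower (Fos, -1.86, adjusted p = 0.0156, and Gfap, -1.40, adjusted p = 0.0326) and 1 higher with MYBtr, beside 0.471% and 0.898% of all genes. The higher gene was Pim1, a survival kinase, at 5.80 ± 0.21 with MYBtr against 5.18 ± 0.13 with eGFP (adjusted p = 0.0387). None was called with MYBQKI6. With the block the counts with MYBtr became 4 lower and 1 higher against eGFP, Myc and Klf4 being added, beside 2.64% and 3.33% of all genes. With MYBQKI6 they became 4 lower and 2 higher against eGFP (beside 2.00% and 2.40%) and 3 lower and 1 higher against QKItr (beside 2.79% and 3.79%). The higher genes were Pim1 (0.59) and Ccl2 (1.56) against eGFP and Ccl2 (1.78) against QKItr. Without the block, Ccl2 was not called (adjusted p = 0.489 and 0.262). The median difference of the 24 targets was -0.04 and -0.11 against QKItr and -0.13 and -0.14 against eGFP. Of these calls, that of Fos in MYBtr against QKItr was kept in all 6 fits that left out 1 sample and lost when only the compared groups were fitted (adjusted p = 0.0638), as were the others (0.0568 to 0.174). Against eGFP, Fos was lost without pool 1 or 2 of either group, Gfap without these or MYBtr pool 3, and Pim1 in all fits but that without MYBtr pool 3. Against QKItr, Gfap was lost with MYBtr without pool 1 or 2 of either group, and Fos with MYBQKI6 in all fits but that without QKItr pool 3.

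Of 18 astrocyte genes, 4 were called lower with MYBtr than with QKItr and none higher, beside 0.678% and 1.34% of all genes. Apoe, a lipid carrier that astrocytes secrete, averaged 6.28 ± 0.07 with MYBtr, against 7.39 ± 0.34 with QKItr (adjusted p = 0.00972). Hepacam, which encodes a glial cell adhesion molecule, averaged 8.43 ± 0.67 with MYBtr, against 10.15 ± 0.56 with QKItr (adjusted p = 0.0145). Sox9, a glial transcription factor, averaged 9.55 ± 0.18 with MYBtr, against 10.27 ± 0.10 with QKItr (adjusted p = 0.0185). Gfap was the fourth and also belongs to the target list.

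The Apoe call was lost without QKItr pool 2 (0.0567), that of Sox9 without MYBtr pool 1, MYBtr pool 2 or QKItr pool 2, and those of Hepacam and Gfap without pool 1 or 2 of either group. The Hepacam call against eGFP was lost without pool 1 or 2 of either group. All 4 calls against QKItr were lost when only the compared groups were fitted (adjusted p from 0.068 to 0.119), and that of Apoe also with the median of its probe sets (0.0755). With the block the count was 7 lower and 1 higher (Id3, an inhibitor of differentiation), beside 3.73% and 5.19% of all genes. MYBQKI6 against QKItr had no call among the 18 without the block and 5 lower with it, beside 2.79%. Against eGFP, 2 were called lower with MYBtr (Hepacam and Gfap) and 0 with MYBQKI6, beside 0.471% and 0.229%, and with the block 7 and 4, beside 2.64% and 2.00%. The list's median difference was -0.39 for MYBtr against QKItr and -0.12 for MYBQKI6 against QKItr, beside -0.01 for all genes. In Qk against LacZ suppression no gene of any of the 4 lists was called.

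**Figure D4:**
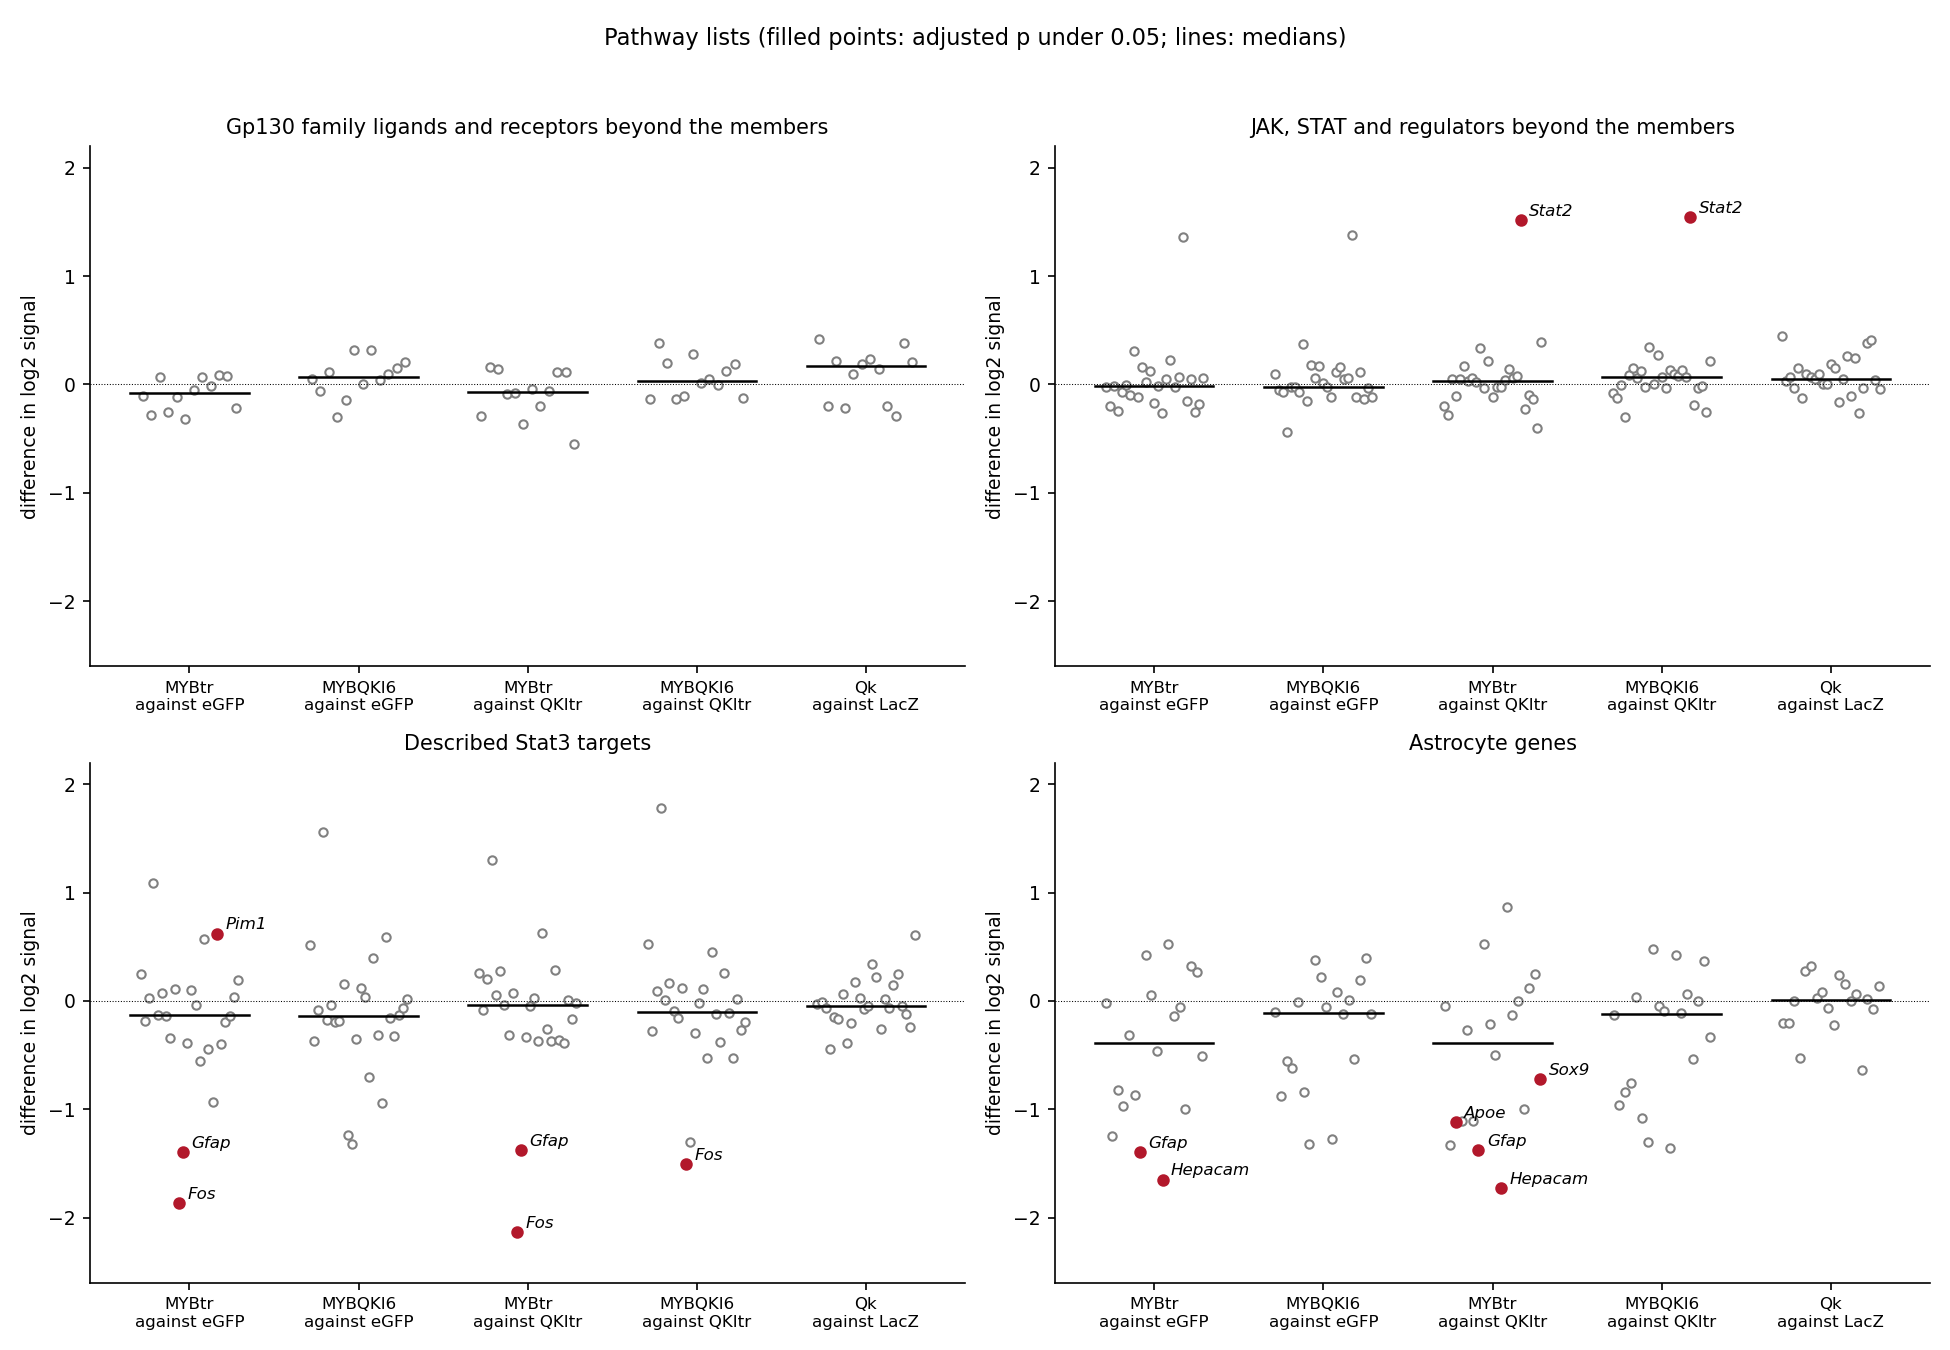
Differences in log2 signal (vertical axes) of each gene of the 4 lists, for 5 comparisons. Filled points have an adjusted p under 0.05 and are named, and lines are medians. Stat2 lies above the other JAK and STAT genes, and the called astrocyte genes and Fos lie below 0.

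The genes whose pattern was most like that of Lifr over the 15 columns of the pool set, after each pool's mean was subtracted, were Pitpnc1 (r = 0.989), Acadm (0.988), Rev3l (0.985), Ednrb (0.983) and Cspg4 (0.983). Ednrb encodes an endothelin receptor found on glia, and Cspg4 the proteoglycan NG2 of oligodendrocyte precursors. Ednrb averaged 7.18 with MYBtr, 7.42 with MYBQKI5 and 7.24 with MYBQKI6, against 9.12 with QKItr and 8.79 with eGFP. Cspg4 averaged 6.04, 6.19 and 6.02 with the MYB constructs, against 7.62 with QKItr and 7.38 with eGFP. Among the members, the r with Lifr was 0.958 for Stat3, 0.831 for Cntfr, 0.811 for Socs3, 0.810 for Il6st and 0.749 for Osmr, and 0.160 for Jak1, -0.165 for Lif and -0.357 for Jak2. These correlations describe 15 columns that share the construct groups, and the MYBQKI5 and eGFP columns among them chose the genes. How many of all genes reach an r of this size was not counted.

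Over the 8 suppression arrays the nearest genes were Tmem38a (r = 0.980), Mosc2 (0.974), Bptf (0.969), Pusl1 (0.962) and Letmd1 (0.961). None of them was among the 5 nearest in the pool set, where their r ranged from -0.75 to 0.69.

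The label of neural stem cells was checked on markers. Of 7 neural stem cell markers measured, 6 lay above the array's median gene in all 15 columns, as did 3 of 6 neuronal markers and none of 6 microglial, 5 vascular, 5 fibroblast or 4 oligodendrocyte markers. The other stem cell marker lay below the median in all 15. In all 8 suppression arrays, 5 of 7 stem cell, 3 of 6 neuronal and 1 of 6 microglial markers lay above it, and none of the vascular, fibroblast or oligodendrocyte markers. Probe sets differ in response, so these positions describe signal on the arrays and do not rank expression between genes. The mean level of the neural stem cell markers ranged from 8.04 to 8.44 with MYBtr, 8.17 to 8.38 with MYBQKI5 and 8.05 to 8.41 with MYBQKI6, against 8.26 to 8.33 with QKItr and 8.19 to 8.41 with eGFP. Nes, one of them, averaged 8.25 ± 0.45 with MYBtr and 8.18 ± 0.55 with MYBQKI6, against 8.85 ± 0.15 with QKItr and 9.29 ± 0.06 with eGFP. It was not called over all samples without the block. With the block it was called against eGFP (adjusted p = 0.00324 with MYBtr and 0.00306 with MYBQKI6). Against QKItr the block also called it, with MYBQKI6 (0.037) and with MYBtr (just under the threshold, rounding to 0.05). Without the block it passed when the pool 3 sample of the MYB construct was left out, against eGFP (0.0284 with MYBtr and 0.00665 with MYBQKI6) and with MYBQKI6 against QKItr (0.0416). Vim, another of these markers, was 0.51 above eGFP with MYBtr and 0.47 above it with MYBQKI6 (adjusted p = 0.0946 and 0.168, and 0.00636 and 0.0125 with the block). Against QKItr the Vim difference was 0.47 with MYBtr and 0.44 with MYBQKI6 (adjusted p = 0.0927 and 0.166), and both were called with the block. The Vim difference of MYBtr from eGFP also passed in 1 fit that left out a sample (0.0494). Among markers of other cell types, the neuronal Map2 differed by -0.51 in MYBQKI6 against eGFP (adjusted p = 0.697, and 0.039 with the block) and the microglial Csf1r by 0.49 in MYBQKI6 against QKItr (0.187, and 0.0183 with the block). The part of these markers in the Lifr result was not tested. In such bulk samples, fewer cells of a type and less RNA per cell cannot be told apart.

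The MYB constructs were checked on Myb itself. Myb averaged 7.23 ± 0.12 with MYBtr, 6.99 ± 0.31 with MYBQKI5 and 7.46 ± 0.40 with MYBQKI6, against 4.86 ± 0.42 with QKItr and 4.62 ± 0.49 with eGFP. For QKItr no such rise was seen on Qk, which averaged 11.03 ± 0.37 with QKItr and 10.78 ± 0.17 with eGFP. That difference of 0.25 was not called, with or without the block. Whether the Qk probe sets read the construct was not tested. Array medians ranged from 5.61 to 5.74 in the pool set and from 5.39 to 5.51 in the suppression set, and no comparison crossed the sets. No pair of arrays was closer than a correlation of 0.967, and none was counted as a duplicate.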

How the data were processed

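The deposited values are log2 signals of Affymetrix probe sets made by the authors from biotin-labelled total RNA, per the labels. How they were summarised, normalized or centred is not given in the sources used here. Precision is limited by how many arrays each group has. Of 269751 probe sets, 233753 named 1 gene symbol, 5106 several and 30892 none, per an annotation table of the platform. A gene's value was the mean over probe sets naming it alone.

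Arrays were grouped by the labels. The 15 pool columns (5 groups of 3 pools) and the 8 suppression arrays were fitted separately in limma 3.58.1 under R 4.3.3, with no filter and Benjamini-Hochberg adjustment over 23152 genes or all probe sets, in 10 comparisons. Scripts were tested on simulated data. Figures used matplotlib 3.10.9 under Python 3.11.15.

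The members and lists were chosen with earlier results of these data known. Text names the 9 members, up to 4 genes per list with the smallest p (Klf4, Id3 and Ccl2 were named after their values were seen), and the 5 genes most like Lifr by Pearson r. Pools pair: the deviations of all 30 pairs of columns of the same pool correlated at 0.31 to 0.72, against a median of -0.23 for 60 others. The second number in the suppression titles gave 0.22 to 0.57 over 5 pairs. The fits without the pool are given first, and those with it as a block beside them for Lifr and where a call differs.

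Alternatives were 1 eGFP array per pool, the highest or median probe set, a filter on dim probe sets (under percentile 25), renewed quantile normalization, median centring, a variance trend, only the compared groups, and leaving out each column. None of these used the block.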

Additional observations from a re-analysis of the deposited data

How the results depend on the processing

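Calls near the threshold moved between the settings. The Lifr differences stayed between -1.58 and -1.07 in every leave-one-out fit of the 4 contrasts tested, and no called difference of a member changed sign under any alternative, while 129 of 1210 uncalled differences did. The causes of lost calls were not tested. Re-scaling moved the median of all genes by under 0.1.

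With the pool as a replicate block, genes called were 1383 (MYBtr against eGFP), 609 (MYBQKI5 against eGFP), 1017 (MYBQKI6 against eGFP), 2064 (MYBtr against QKItr) and 1525 (MYBQKI6 against QKItr), instead of 317, 46, 177, 467 and 242. Members called became 2 (MYBQKI5 against eGFP), 2 (MYBQKI6 against eGFP) and 3 (MYBQKI6 against QKItr), with Stat3 at -0.88 and -0.80 in the contrasts of MYBQKI6. Member probe sets called became 10 (MYBtr against eGFP), 6 (MYBQKI6 against eGFP), 20 (MYBtr against QKItr) and 9 (MYBQKI6 against QKItr), instead of 2, 3, 7 and 5. All were lower, beside 0.130%, 0.0519%, 0.417% and 0.228% of all probe sets called lower with the block. In MYBQKI5 against eGFP the count was 3 instead of 2. The block also added Stat3 in MYBQKI5 against eGFP and Cntfr in MYBtr against eGFP and in MYBQKI6 against QKItr, and changed no other call of a member.

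With the highest probe set per gene, genes called were 96, 18, 41, 164 and 68 in the same order and 0 for Qk against LacZ suppression. The 1 member called in MYBtr against eGFP and the 1 in MYBtr against QKItr were Lifr, Stat3 being lost at -0.29 and -0.32, and 0 were called in MYBQKI5 against eGFP. With the median of probe sets, genes called were 182, 26, 93 and 284 in the first 4, and the 1 member called in MYBtr against QKItr was Lifr, Stat3 being lost at -1.04 (adjusted p = 0.0736). MYBQKI5 against eGFP had 29 genes without dim probe sets and 70 after quantile normalization. Quantile normalization (Stat3 -0.89), median centring (-0.88) and a variance trend (-0.88) each gave 2 members in MYBQKI6 against eGFP.

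Fits of only the groups compared called 37 genes in MYBtr against eGFP, 27 in MYBQKI6 against eGFP, 51 in MYBtr against QKItr and 22 in MYBQKI6 against QKItr. Members called were 0 in these and in MYBQKI5 against eGFP, Lifr (-1.25, -1.30, -1.34 and -1.39) and, with MYBtr, Stat3 (-1.002 and -0.93) being lost. Their adjusted p for Lifr ranged from 0.0568 to 0.0766.

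Leaving out 1 replicate, genes called ranged from 52 to 456 (MYBtr against eGFP), 11 to 32 (MYBQKI5 against eGFP), 23 to 244 (MYBQKI6 against eGFP), 106 to 635 (MYBtr against QKItr) and 36 to 328 (MYBQKI6 against QKItr). They ranged from 0 to 3 for MYBQKI5 against MYBtr, and from 0 to 1 for MYBQKI6 against MYBQKI5 and for Qk against LacZ suppression. Members called ranged from 0 to 2 (MYBtr against eGFP), were 0 in all 6 fits of MYBQKI5 against eGFP, and ranged from 0 to 2 (MYBQKI6 against eGFP), 1 to 3 (MYBtr against QKItr) and 0 to 2 (MYBQKI6 against QKItr). Lifr ranged from -1.47 to -1.07 (MYBtr) and -1.49 to -1.19 (MYBQKI6) against eGFP and from -1.58 to -1.28 (MYBQKI6) against QKItr. Stat3 ranged from -1.21 to -0.90 and -1.08 to -0.76 against eGFP, and from -1.14 to -0.82 and -1.002 to -0.68 against QKItr.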
